A study of Mus musculus with 9 samples.

Results

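Circular RNAs (circRNAs) that were annotated as sense overlapping, intronic or antisense were followed across immunoprecipitations of the RNA-binding protein HuD from mouse striatum. They are the 85 circRNAs that the authors' deposited lists of circRNAs higher in HuD RIP give with one of these annotations, after leaving out 8 circRNAs of 6 host genes, among 737 listed circRNAs and 14330 features on each array. Sense overlapping circRNAs made up 63 of the 85, intronic ones 17 and antisense ones 5, and the remaining 644 listed circRNAs were exonic. The lists were chosen on the measured values: a circRNA was listed when its normalized signal was over 1.5-fold higher in HuD RIP than in a control with an unadjusted p under 0.05 in the authors' comparison, so that 55 of the 85 were listed against both controls, 24 against IgG RIP alone and 6 against WT RIP alone. The values of HuD RIP against either control are therefore a description of how the members were chosen. Standard errors and counts of calls from the fit over all features are given as part of that description, and nothing about the members is supported with them.

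RNA immunoprecipitation (RIP) recovers the RNA that comes down with a protein bound by an antibody. The 9 arrays formed 3 groups of 3 RIP assays. Tissue of 3 mice was pooled for a precipitation, and whether the assays of a group used separate pools is not clear from the description, so the spread between them may be technical. HuD RIP was taken with an anti-myc antibody from HuD-OE mice, which are C57BL/6J mice with a transgene for myc-tagged HuD under the Camk2a promoter, so that the tagged protein is made in forebrain neurons. WT RIP was taken from wild-type mice with the same antibody and shows what that antibody recovers without the tagged protein. IgG RIP used tissue of HuD-OE mice again and is described in the methods as made with nonimmune IgG, although its samples carry the same antibody label as HuD RIP. All samples were striatum of adult mice, and RNase R was used on all of them to digest linear RNA before labelling with Cy3. Of 13 marker genes of striatal projection neurons, Arpp21, Bcl11b and Foxp1 hosted a listed circRNA, and Drd1, Drd2 and the other markers did not. Of the glial markers, 2 of 6 for astrocytes, 1 of 5 for oligodendrocytes and 0 of 3 for microglia did, and Slc6a11, an astrocytic GABA transporter, was the only marker that hosted a member.

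A circRNA forms when the end of a transcribed segment is spliced back to its own beginning, which leaves a closed loop with no free end and makes it resistant to RNase R. Most circRNAs of neurons are made of exons, accumulate in the cytoplasm and at synapses, and are exported, whereas loops that keep intron sequence tend to remain in the nucleus. The annotation compares the ends of a loop with the known exons of the host gene: exonic loops end at exon borders, intronic loops lie within an intron or use one, sense overlapping loops overlap the gene on its own strand in some other way, and antisense loops come from the opposite strand. HuD, also called ELAVL4, is a neuronal protein of the ELAV family that binds AU-rich and U-rich stretches, best known from the untranslated regions of messenger RNAs, which it stabilizes.

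Each circRNA is read on the array by the sequence across its back-splice junction, which is 60 bases long in the deposited tables. In 5 of the 85 members both ends of the loop lay within 2 bases of those of a listed exonic circRNA. Of these pairs 4 are shown, because 2 bases at 1 end separate the exonic loop from the one annotated otherwise. Capitals mark the longest run of letters that both sequences of a pair share, and positions are as deposited. The tables name no genome build. Of the 76 members matched to a RefSeq gene by transcript or symbol, 73 lay inside that gene on GRCm38.p6.
Camta1 sense overlapping, chr4:151830417-151835885, minus strand: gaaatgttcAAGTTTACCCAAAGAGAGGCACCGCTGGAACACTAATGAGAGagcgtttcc
Camta1 exonic, chr4:151830417-151835883, minus strand: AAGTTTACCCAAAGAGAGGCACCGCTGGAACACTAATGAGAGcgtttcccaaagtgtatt
Mboat2 intronic, chr12:24878190-24882796, plus strand: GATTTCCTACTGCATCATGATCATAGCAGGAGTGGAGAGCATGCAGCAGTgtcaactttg
Mboat2 exonic, chr12:24878190-24882794, plus strand: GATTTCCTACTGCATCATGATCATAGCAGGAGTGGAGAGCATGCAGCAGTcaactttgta
Rad52 sense overlapping, chr6:119920107-119921028, plus strand: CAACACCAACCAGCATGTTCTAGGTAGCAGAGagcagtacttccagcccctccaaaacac
Rad52 exonic, chr6:119920109-119921028, plus strand: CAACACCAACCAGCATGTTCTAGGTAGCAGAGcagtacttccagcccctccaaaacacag
Aff3 sense overlapping, chr1:38534905-38536948, minus strand: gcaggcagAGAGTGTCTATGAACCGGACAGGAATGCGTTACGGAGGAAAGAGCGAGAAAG
Aff3 exonic, chr1:38534905-38536946, minus strand: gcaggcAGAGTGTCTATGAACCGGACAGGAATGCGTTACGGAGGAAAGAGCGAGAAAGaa
With 2 bases taken out of the longer loop, the sequences of the Mboat2, Rad52 and Aff3 pairs shared a run of 58 bases, and those of the Camta1 pair a run of 49. The bases that had to be taken out read AG, or GA where the letters repeat, at the first bases of the Camta1, Rad52 and Aff3 loops, and GT or TG at the last bases of the Mboat2 loop. As background, introns of mammalian genes begin with GT and end with AG.

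The junctions of members of Dlg4, Malat1 and Ube2e2 are shown next. They cover large and small differences, but larger and smaller ones occur among members whose junctions are not shown. Capitals here mark the letters ATTTA, the core of an AU-rich element, and runs of 5 T, both searched on the printed strand alone. Sequences without capitals hold neither.
Dlg4 antisense, chr11:70031734-70039129, minus strand: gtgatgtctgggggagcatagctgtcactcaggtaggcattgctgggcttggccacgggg
Malat1 antisense, 87-base loop, chr19:5798663-5798750, plus strand: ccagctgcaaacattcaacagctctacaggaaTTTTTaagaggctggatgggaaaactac
Malat1 antisense, 108-base loop, chr19:5796703-5796811, plus strand: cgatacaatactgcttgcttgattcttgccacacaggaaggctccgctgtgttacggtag
Malat1 sense overlapping, chr19:5798035-5799683, minus strand: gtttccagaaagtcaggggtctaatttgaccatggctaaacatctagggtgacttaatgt
Ube2e2 intronic, 2570-base loop, chr14:18627861-18630431, minus strand: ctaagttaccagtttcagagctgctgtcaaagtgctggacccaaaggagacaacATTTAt
Ube2e2 intronic, 8789-base loop, chr14:18630298-18639087, minus strand: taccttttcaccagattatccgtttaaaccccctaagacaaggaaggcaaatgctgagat
For Tulp4, 3 intronic members have ends within 5 bases of each other, and capitals mark the run of 11 bases that all of them share.
Tulp4 intronic, 1946-base loop, chr17:6137210-6139156, plus strand: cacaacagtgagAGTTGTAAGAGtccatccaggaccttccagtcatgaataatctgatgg
Tulp4 intronic, 1948-base loop, chr17:6137208-6139156, plus strand: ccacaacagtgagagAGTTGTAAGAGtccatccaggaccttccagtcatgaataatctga
Tulp4 intronic, 1941-base loop, chr17:6137210-6139151, plus strand: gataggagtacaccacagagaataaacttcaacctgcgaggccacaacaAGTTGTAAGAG

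All values below are scaled log2 signals, that is the log2 of the background-subtracted signal less the 75th percentile of its array, and a difference is a difference of group means on that scale, with its standard error from the fit. Arrays of HuD RIP were brighter before scaling, with 75th percentiles of 3.49 to 5.46 (log2), while WT RIP lay between 2.35 and 3.51 and IgG RIP between 2.04 and 2.42. The share of features well above background was 43.7% to 73.9%, 25.4% to 44.6% and 21.7% to 26.3% in the same order. All 85 members were well above background on the 3 HuD RIP arrays and passed the filter for testing, which the listing itself favours. In the controls the members were dim: all of WT RIP missed 25 and all of IgG RIP missed 60, and 14 were above background on all 9 arrays. Where no array of a control saw a circRNA, the difference is printed as a bound (at least so many fold), and 8 members had neither a fold nor a bound against IgG RIP because the bound fell under 1. On WT RIP replicates 2 and 3, 6041 and 4994 of the 14330 features shared 1 lowest value, -2.33 and -2.80, which is a floor and not a reading. A floor value was present for 31 members, of which WT RIP saw 10 on some array. For those of the 10 named below the fold against WT RIP is printed as a bound as well, with every dim WT RIP array raised to the lowest signal above background on it. Medians over members, and the plots, use the values as measured, floors and unseen controls included.

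Against WT RIP the median difference was 2.39 over the sense overlapping members, 2.42 over the intronic ones and 2.66 over the antisense ones, beside 2.12 over the listed exonic circRNAs and -0.36 over all 6871 features tested. Against IgG RIP the medians were 2.16, 2.34 and 2.21, beside 2.17 over the exonic ones and -0.29 over all tested. With each member that a control did not see set to its bound, the medians of the 85 members were 1.75 against WT RIP and 1.20 against IgG RIP, beside 1.87 and 1.18 for the exonic ones. The spread within a class was far larger than the distance between classes: as measured, single members ranged from -0.20 to 4.75 against WT RIP.

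**Figure D1:**
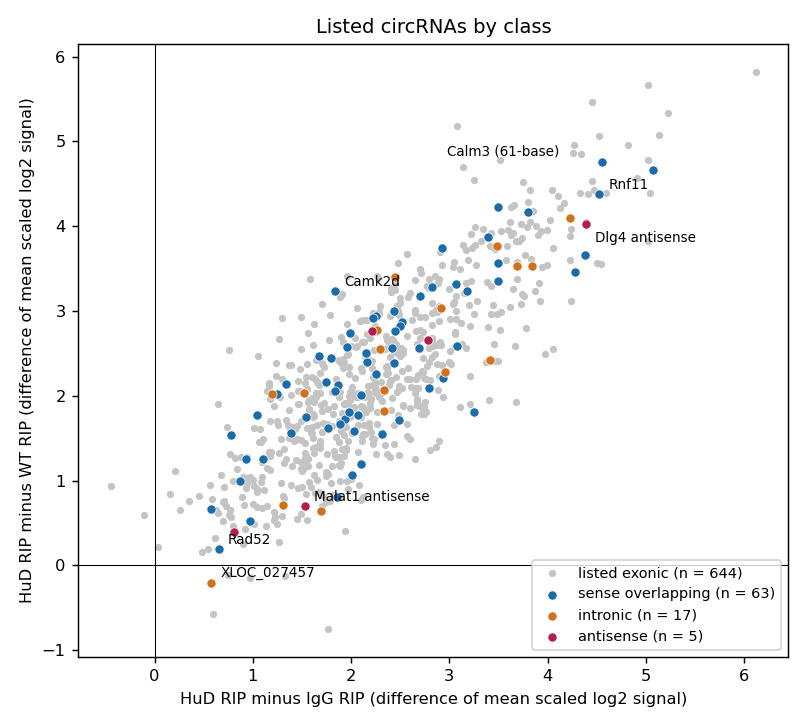
Each point is a listed circRNA, with the difference of mean scaled log2 signal between HuD RIP and IgG RIP on the x axis and between HuD RIP and WT RIP on the y axis, as measured, with floor values and without bounds. The 63 sense overlapping, 17 intronic and 5 antisense members lie within the cloud of the 644 listed exonic circRNAs, from XLOC_027457 and Rad52 at the lower end to the 61-base Calm3 loop and Rnf11 at the upper end.

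In the limma fit over all features, 12.4% of those tested were called higher against WT RIP, taking an adjusted p under 0.05 as the limit, and 69 of the 85 members were among them (52 of 63 sense overlapping, 14 of 17 intronic, 3 of 5 antisense). Against IgG RIP 14.2% were called higher, and 71 members were (52, 15 and 4). Since the members were listed for being higher in these contrasts, nothing is read from these counts. Without HuD RIP replicate 3, 42 and 44 members were called, beside 5.22% and 5.81% of all tested features. After normexp background correction 19 and 24 were called, beside 2.34% and 3.71%. The shares over all features thus fell along with the counts of members. Slide here stands for arrays that share a scan date in the headers, and row for the first part of the header barcode. Neither name comes from the sample labels. Against IgG RIP a block for slide and row together left 35 called, beside 3.8% of all tested features. A block for the slide alone left 52, beside 6.53%. IgG RIP replicate 3 was the only array of slide 2, so both blocks also take it out of the comparison. On slide 1, HuD RIP replicate 1 lay in the row of the WT RIP arrays. HuD RIP replicates 2 and 3 lay in the row of IgG RIP replicates 1 and 2. HuD RIP replicate 1 exceeded every WT RIP array for 80 of the 85 members. HuD RIP replicates 2 and 3 exceeded every IgG RIP array, the one on slide 2 included, for 83. The share over all tested features was not taken here. The members were listed for being higher in HuD RIP, so nothing is read from these counts either.

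Every HuD RIP array was above every WT RIP array for 68 members, beside 14.9% of all tested features, and above every IgG RIP array for 81, beside 20.9%. With array brightness as a covariate 21 and 8 were called, beside 3.62% and 2.72% of all tested features. The differences from IgG RIP of Camk2d, Dynll2, Ubr3, App and the sense overlapping loop of Ube2e2 then turned negative. The members nearest to the 1.5-fold limit of the lists, in the authors' own normalized values, were Luc7l3 with a difference of 0.60 (log2) against WT RIP and App with 0.59 against IgG RIP, while circRNAs below the limit carry no name or annotation in these data and so cannot be compared by class.

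The class medians were then set against the exonic median on each HuD RIP array. Sense overlapping members lay 0.24, 0.18 and 0.26 above the exonic median on HuD RIP replicates 1, 2 and 3 when measured against WT RIP (mean 0.23 ± 0.04, SD, n = 3), and 0.01, 0.02 and 0.14 above it against IgG RIP (0.06 ± 0.07). The first of these rested on WT RIP replicate 1, without which it was -0.07. With unseen members set to their bounds, the sense overlapping median against WT RIP was 1.75, under the exonic 1.87. The intronic and antisense medians were then 2.07 and 2.66. All values of a class share the mean of the control arrays, so these SDs leave out the spread between control arrays. Intronic members lay 0.57, 0.12 and 0.32 above the exonic median against WT RIP (0.34 ± 0.22), and 0.55, -0.13 and 0.05 from it against IgG RIP (0.16 ± 0.35), so that the second was smaller than its spread. Antisense members differed in sign between arrays, with -0.93, 1.64 and 0.75 against WT RIP (0.48 ± 1.30) and -1.52, 1.07 and 0.56 against IgG RIP (0.04 ± 1.37).

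**Figure D2:**
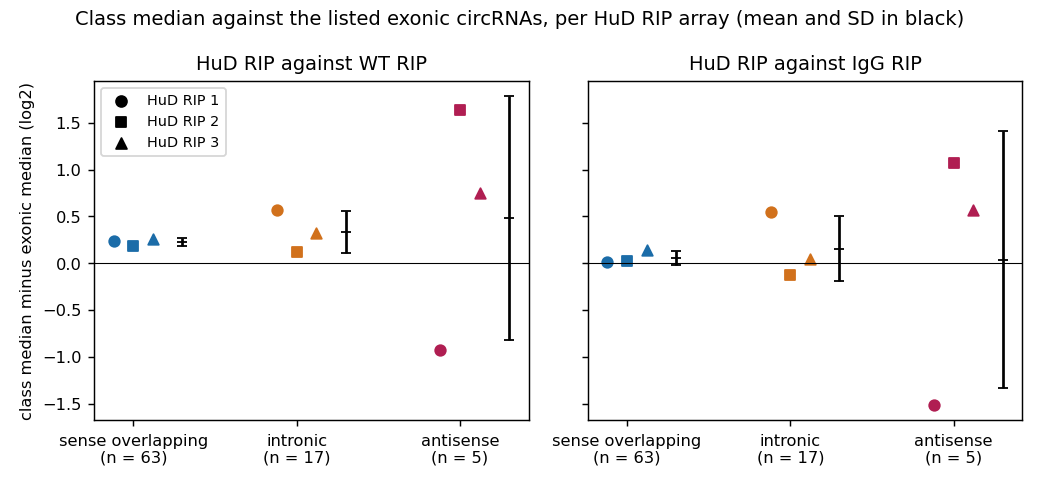
Points give, for each HuD RIP array, the median difference of a class from the mean of the control arrays less the same median over the 644 listed exonic circRNAs (log2, y axis), with WT RIP as control on the left and IgG RIP on the right. Black bars are the mean and SD of the 3 arrays: the antisense members lie below the exonic median on HuD RIP 1 and above it on HuD RIP 2 and 3, and the other classes stay within 0.6 of it.

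The antisense circRNAs had their lowest HuD RIP value on replicate 1 in 5 of 5 cases, whereas replicate 2 gave the lowest value for 57 of 63 sense overlapping, 13 of 17 intronic and 515 of 644 exonic circRNAs. Replicate 1 was the brightest array of all before scaling and the only HuD RIP array in the row of the WT RIP arrays, so that array, brightness and row cannot be told apart, and 2 of the 5 antisense circRNAs share Malat1 as host.

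Dlg4 encodes PSD-95, the main scaffold of the postsynaptic density at excitatory synapses, and its member is antisense, a loop of 7395 bases on the strand opposite to the gene. It read 2.66, 3.44 and 3.87 in HuD RIP, -0.23, -1.13 and -0.77 in WT RIP and -1.33, -0.28 and -1.59 in IgG RIP, in the order of the replicates. The groups did not overlap, and the lowest HuD RIP value stood well clear of the highest control value. The difference from WT RIP was 4.03 ± 0.48, and the signal was at least 10.3-fold above IgG RIP, which saw it on no array. A listed exonic circRNA of Dlg4 from the gene's own strand was at 4.10, 3.89 and 4.37 in HuD RIP, with differences of 0.59 ± 0.35 from WT RIP and -0.11 ± 0.35 from IgG RIP, the latter turning to 2.11 without scaling and to 1.25 with normexp. The antisense loop and the exonic one do not overlap on the genome, and the exonic one was not called against either control.

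Calmodulin is the calcium sensor that activates CaMKII, calcineurin and other enzymes of synaptic signalling, and Calm3 is a gene for it. Of the 10 genes of the calmodulin list, 5 hosted 8 members, of which 7 were called higher against WT RIP and 8 against IgG RIP, beside 12.4% and 14.2% of all tested features. The 61-base sense overlapping loop of Calm3 read 7.06, 7.10 and 8.21 in HuD RIP, 3.50, 2.49 and 2.12 in WT RIP and 2.90, 2.83 and 2.99 in IgG RIP. All 9 arrays saw it, so its differences of 4.75 ± 0.46 and 4.55 ± 0.46 are measured on both sides. A second Calm3 loop of 102 bases stood at 6.35, 5.28 and 6.47 in HuD RIP, 2.42, 1.83 and 1.34 in WT RIP and 2.11, 2.43 and 2.15 in IgG RIP, with differences of 4.17 ± 0.44 and 3.80 ± 0.44. These 2 loops lie 461 bases apart on the genome, and their junction sequences share no run longer than 12 bases.

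The antisense loop of Calm3, 94 bases long, gave 0.57, 2.38 and 2.60 in HuD RIP, -0.52, -1.14 and -1.10 in WT RIP and -0.28, -0.40 and -0.40 in IgG RIP. It was higher on every HuD RIP array, by 2.77 ± 0.51 over WT RIP and at least 3.72-fold over IgG RIP, with replicate 1 far below the other HuD RIP arrays. The sense and antisense loops of Calm3 alike stood higher on every HuD RIP array than on any control array, and no junction of one strand held a complementary run of more than 6 bases to a junction of the other.

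Further members of the calmodulin list were loops of Camk2d, Atp2a2 and Camta1. Camk2d, a subunit gene of CaMKII, differed by 3.23 ± 0.58 from WT RIP and was at least 3.12-fold above IgG RIP. Atp2a2, the calcium pump of the endoplasmic reticulum, differed by 1.54 ± 0.58 and 2.31 ± 0.58, overlapped with WT RIP and was not called against WT RIP. Camta1, a calmodulin-binding transcription activator, differed by 1.73 ± 0.38 and 1.94 ± 0.38. Loops shorter than 150 bases were 9 of the 85 members and 5 of the 644 exonic circRNAs, and those of the members included loops of Calm3, Malat1, Slc6a11 with 133 bases and Eif4h with 91.

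**Figure D3:**
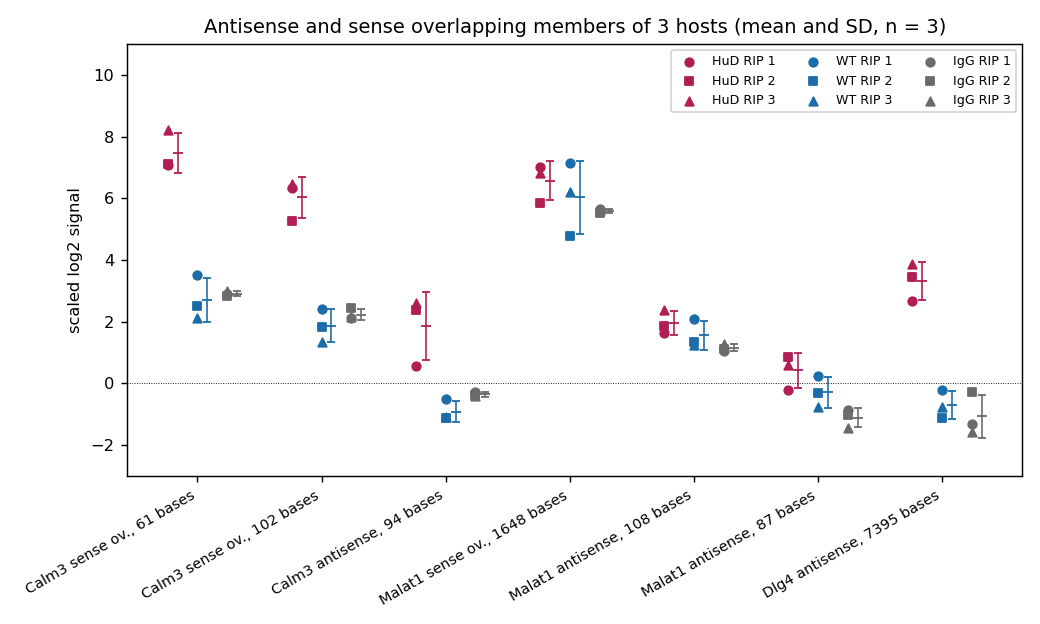
Scaled log2 signal (y axis) of 7 members on each of the 9 arrays, with HuD RIP in red, WT RIP in blue and IgG RIP in grey, and circle, square and triangle for replicates 1, 2 and 3. Horizontal ticks and bars are the mean and SD (n = 3): HuD RIP does not overlap with either control for Calm3 and Dlg4 and overlaps with WT RIP for the 3 Malat1 loops.

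Malat1 is an abundant long noncoding RNA of nuclear speckles, and it was the host of 3 members among the 6 nuclear noncoding RNAs of the list. None of the 3 was called against WT RIP and 1 was against IgG RIP. The sense overlapping loop read 7.02, 5.84 and 6.82 in HuD RIP, 7.13, 4.79 and 6.19 in WT RIP and 5.65, 5.52 and 5.61 in IgG RIP. WT RIP replicate 1 was higher than every HuD RIP array, and the differences were 0.53 ± 0.55 and 0.97 ± 0.55. The 108-base antisense loop read 1.64, 1.85 and 2.38 in HuD RIP, 2.10, 1.34 and 1.24 in WT RIP and 1.06, 1.11 and 1.29 in IgG RIP, and it too overlapped with WT RIP, with differences of 0.40 ± 0.39 and 0.81 ± 0.39. The 87-base antisense loop, which lies inside the genomic span of the sense loop on the opposite strand, read -0.21, 0.86 and 0.59 in HuD RIP, 0.23, -0.32 and -0.77 in WT RIP and -0.86, -1.03 and -1.46 in IgG RIP. It differed by 0.70 ± 0.43 from WT RIP and was at least 1.38-fold above IgG RIP. For all 3 loops HuD RIP overlapped with WT RIP and stood above every IgG RIP array.

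Members of synaptic scaffolds, receptors and transporters numbered 10, 1 from each of the 10 genes listed. The host gene lists were sorted with the deposited names in view, so this coverage follows from how the lists were made. Of the 10, 5 were called against WT RIP and 8 against IgG RIP, beside 12.4% and 14.2% of all tested features. Over all 10, the antisense loop of Dlg4 included, the median difference was 1.46 (WT RIP) and 2.06 (IgG RIP). Nptn, a cell adhesion molecule of synapses, read 2.34, 1.52 and 2.22 in HuD RIP, 1.03, 1.67 and 1.39 in WT RIP and 1.36, 1.44 and 1.56 in IgG RIP, overlapped with both controls and differed by 0.66 ± 0.38 and 0.57 ± 0.38. A listed exonic loop that lies within the span of the Nptn member differed by 2.56 ± 0.47 and 2.50 ± 0.47. Gabrb2, a subunit of the GABA-A receptor, read 2.13, 1.27 and 2.10 in HuD RIP, 0.91, 0.93 and 0.68 in WT RIP and 1.04, 0.77 and 1.08 in IgG RIP, without overlap, and differed by 0.87 ± 0.38 from IgG RIP. Gria2, the AMPA receptor subunit that sets calcium permeability, differed by 1.07 ± 0.57 from WT RIP with overlap and was at least 1.94-fold above IgG RIP.

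Of the neurotrophin receptors, Ntrk2, which binds BDNF, differed by 2.40 ± 0.44 from WT RIP, and the intronic loop of Ntrk3, which binds neurotrophin-3, by 0.72 ± 0.40 with overlap. They were at least 2.47-fold and at least 2-fold above IgG RIP. Gpm6a, a neuronal membrane glycoprotein, differed by 2.26 ± 0.48 and 2.26 ± 0.48, while a listed exonic loop that overlaps it differed by 4.39 ± 0.61 and 5.04 ± 0.61. App, the amyloid precursor protein, differed by 1.20 ± 0.57 from WT RIP and was at least 1.04-fold above IgG RIP, with an overlap with WT RIP. Slc6a11, the GABA transporter of astrocytes named above, was at least 2.01-fold above WT RIP, with a floor value on 1 array, and at least 1.63-fold above IgG RIP. Lin7a, a scaffold that organizes receptors and channels, was seen on no control array. It was at least 1.32-fold above WT RIP and had no bound against IgG RIP.

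Small GTPases and proteins of membrane traffic hosted 10 members in 9 genes, of which 9 were called against WT RIP and 10 against IgG RIP, where 12.4% and 14.2% of all tested features were. Arf3 is a GTPase of the Golgi that recruits coat proteins, and its 2 sense overlapping loops share 1 end. The 2409-base loop gave 5.41, 4.20 and 5.37 in HuD RIP, 2.52, 0.50 and 1.26 in WT RIP and 1.49, 1.68 and 1.32 in IgG RIP. The 2493-base loop gave 4.86, 3.69 and 4.81 in HuD RIP, 2.19, 0.25 and 0.84 in WT RIP and 0.54, 1.16 and 1.17 in IgG RIP. Neither loop overlapped with a control. The differences were 3.56 ± 0.53 and 3.49 ± 0.53 for the first and 3.35 ± 0.53 and 3.50 ± 0.53 for the second, and since the junction sequences share a run of 46 bases the loops are not independent readings. Sec62, part of the translocon of the endoplasmic reticulum, stood at 1.89, 2.15 and 2.94 in HuD RIP and was seen on no control array, which made it at least 8.83-fold above WT RIP and at least 5.19-fold above IgG RIP. Lnpep, an aminopeptidase that traffics with glucose transporter vesicles, stood at 1.78, 0.45 and 1.80, at least 4.46-fold over WT RIP and at least 2.62-fold over IgG RIP.

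Dynll2, a dynein light chain, differed by 3.23 ± 0.76 and 3.18 ± 0.76, and Scamp1, a secretory carrier membrane protein, by 1.67 ± 0.45 and 1.88 ± 0.45. Golph3, which holds enzymes in the Golgi, Pgrmc2, a heme-binding membrane protein, and Rap2a, a Ras-related GTPase, were seen on no control array and were at least 3.05-fold, at least 1.99-fold and at least 1.58-fold above WT RIP. Golph3 was at least 1.79-fold and Pgrmc2 at least 1.17-fold above IgG RIP, against which Rap2a had no bound. Gprasp1, which sorts receptors to lysosomes, differed by 0.81 ± 0.45 from WT RIP with overlap and was at least 1.82-fold above IgG RIP.

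**Figure D4:**
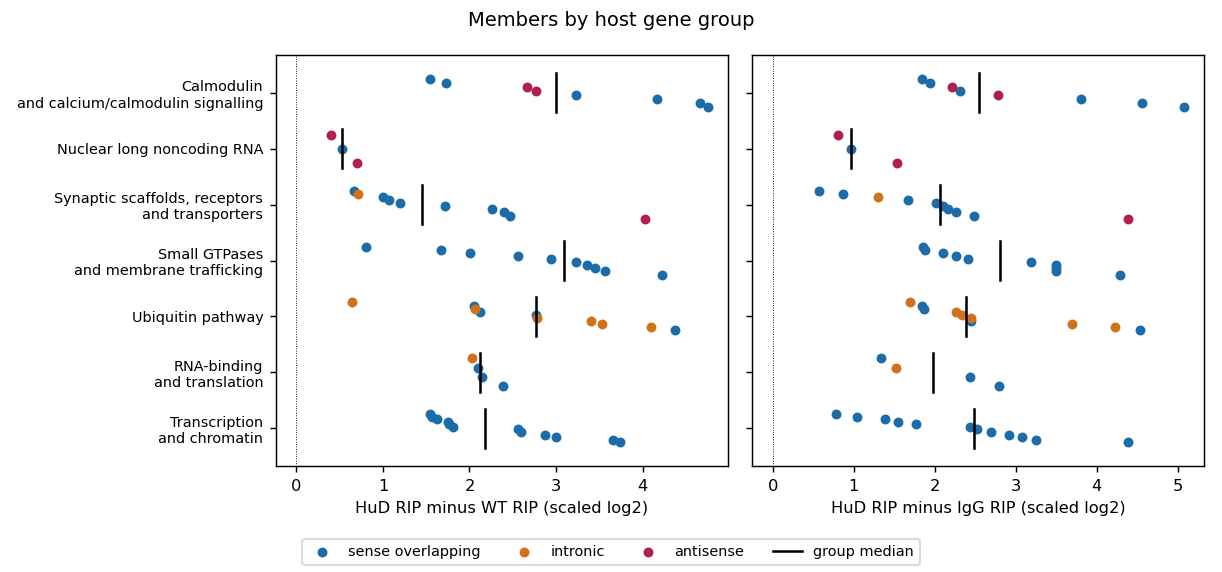
Difference of mean scaled log2 signal (x axes, HuD RIP minus WT RIP on the left and minus IgG RIP on the right) of each member in the 7 host gene groups, coloured by annotation, as measured, with floor values and without bounds. Black lines are group medians: against WT RIP they run from 0.53 for the nuclear noncoding RNA group to 3.09 for the membrane traffic group, and the groups overlap widely.

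The ubiquitin list held 10 members in 6 genes, and 9 were called against WT RIP and 10 against IgG RIP, next to 12.4% and 14.2% of all tested features. Ube2e2 encodes a ubiquitin-conjugating enzyme and hosted 3 members. Its 8789-base intronic loop was at 3.68, 2.90 and 4.08 in HuD RIP and 0.70, -2.33 and 0.00 in WT RIP, where replicate 2 is at the floor, and was at least 10.4-fold above WT RIP and at least 12.1-fold above IgG RIP. Its 2570-base intronic loop was at 3.06, 2.15 and 2.94 in HuD RIP and -0.47, -1.42 and -0.55 in WT RIP, a difference of 3.53 ± 0.42, and was at least 6.79-fold above IgG RIP. The sense overlapping loop of the same gene was at 1.82, 0.26 and 1.57 in HuD RIP, with a difference of 2.12 ± 0.54 from WT RIP. The 2 intronic loops overlap by 133 bases on the genome.

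Tulp4, a substrate receptor of cullin ubiquitin ligases, hosted the 3 intronic loops printed above, which are 1 genomic segment read at slightly different ends. The 1941-base loop gave 4.72, 2.76 and 3.74 in HuD RIP and 1.03, -0.72 and 0.69 in WT RIP. The 1946-base loop gave 2.92, 1.47 and 2.34 in HuD RIP and 0.02, -1.37 and -0.26 in WT RIP. The 1948-base loop gave 2.85, 1.28 and 2.11 in HuD RIP and 0.07, 0.02 and -0.05 in WT RIP. Their differences from WT RIP were 3.41 ± 0.56, 2.78 ± 0.50 and 2.07 ± 0.44, and no HuD RIP array overlapped with WT RIP for any of them. Rnf11, a RING finger protein, stood at 1.97, 2.19 and 2.80 in HuD RIP and -1.06, -2.33 and -2.80 in WT RIP, where replicates 2 and 3 are at the floor, and was at least 8.03-fold above WT RIP and at least 5.16-fold above IgG RIP. Ube3a, the ubiquitin ligase lost in Angelman syndrome, was at least 4.05-fold above WT RIP, while Ubr3, a ligase of the N-degron family, was at least 2.52-fold above WT RIP, with overlap and a floor value on 1 array. The intronic loop of Rnf214 differed by 0.65 ± 0.44 from WT RIP, with overlap, and was the member of the list that was not called there.

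Hosts that act on RNA or translation had 4 members, all called against WT RIP and 3 of them against IgG RIP (12.4% and 14.2% over all tested features). Hnrnpu, a nuclear matrix protein that binds RNA and chromatin, differed by 2.39 ± 0.43 from WT RIP. Eif4h, which aids the helicase of translation initiation, differed by 2.09 ± 0.45, and R3hdm1, a protein with an RNA-binding R3H domain, was at least 2.56-fold above WT RIP, with a floor value on 1 array. The intronic loop of Srpk2, a kinase of splicing factors, was seen on no control array. It was at least 1.34-fold above WT RIP and had no bound against IgG RIP.

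Transcription and chromatin regulators hosted 12 members in 11 genes, of which 11 were called against WT RIP and 9 against IgG RIP, beside the same 12.4% and 14.2%. In all these lists the counts follow from how the members were listed. Gatad1, a zinc finger protein of a histone demethylase complex, was at 3.43, 1.86 and 3.57 in HuD RIP and -0.11, -0.56 and -1.42 in WT RIP, a difference of 3.66 ± 0.53, and was at least 8.02-fold above IgG RIP. Ncoa7, a nuclear receptor coactivator, Hlf, a circadian PAR bZIP factor, and Ctnnb1, the beta-catenin of adhesion and Wnt signalling, were seen on no control array and were at least 3.37-fold, at least 1.96-fold and at least 3.03-fold above WT RIP. Their bounds against IgG RIP were lower, at least 1.98-fold, at least 1.15-fold and at least 1.78-fold. Tfdp2, a partner of E2F factors, differed by 1.81 ± 0.57 with overlap, Zfp65 by 2.59 ± 0.64, and Runx1t1, a corepressor, by 1.75 ± 0.51. Arid1b, a subunit of the BAF chromatin remodelling complex, was at least 2.28-fold above WT RIP, with floor values on 2 arrays. The 2 Zfp644 loops, which share 1 end, differed by 1.77 ± 0.47 and 1.54 ± 0.37 from WT RIP but by 1.04 ± 0.47 and 0.78 ± 0.37 from IgG RIP, and were not called in the second comparison.

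The remaining intronic members fall outside these lists. Pcmtd1, a protein related to isoaspartyl methyltransferases, stood at 2.64, 1.20 and 2.51 in HuD RIP and -1.52, -2.33 and -0.40 in WT RIP, where replicate 2 is at the floor, and was at least 6.94-fold above WT RIP and at least 4.48-fold above IgG RIP. A member given to the microRNA gene Mir8115, at chr11:87205932-87218330, differed by 3.03 ± 0.50 from WT RIP. In RefSeq on GRCm38.p6 the Mir8115 hairpin lies on chr5:122682597-122682715, and the loop lies inside Trim37, whose listed exonic loop it overlaps, so its host label is in doubt. Another 3 intronic members carry no gene symbol, and on GRCm38.p6 they lie inside Akap7, Gatad2b and Spin1. They were seen on no control array and were at least 1.97-fold, at least 3.37-fold and at least 4.36-fold above WT RIP. Their bounds against IgG RIP were lower, at least 1.16-fold, at least 2.1-fold and at least 2.56-fold. Ccny, a cyclin that anchors a kinase at the membrane, differed by 2.42 ± 0.77, with overlap, and Rgs6, a regulator of G protein signalling, was at least 1.56-fold above WT RIP. Rgs6 had no bound against IgG RIP and was not called there.

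At the other end, the intronic loop XLOC_027457, listed against IgG RIP alone, had high scaled signals in the controls too. It read 5.63, 6.32 and 6.33 in HuD RIP, 6.40, 5.65 and 6.84 in WT RIP and 5.85, 5.39 and 5.31 in IgG RIP. Before scaling its group means were 10.48, 9.19 and 7.69 in the same order. On the scaled values it overlapped with both controls, and its differences were -0.20 ± 0.42 from WT RIP and 0.58 ± 0.42 from IgG RIP. The sense overlapping loop of Rad52, a recombination protein, read 3.43, 2.86 and 3.70 in HuD RIP, 3.40, 2.47 and 3.55 in WT RIP and 2.58, 2.84 and 2.60 in IgG RIP, with differences of 0.19 ± 0.41 and 0.65 ± 0.41, and it overlapped with WT RIP. For the host named XLOC_002678, 2 sense overlapping loops, which by position on GRCm38.p6 lie inside Slc16a7, a monocarboxylate transporter gene, shared 1 end and were at least 2.34-fold and at least 3.84-fold above WT RIP, which saw neither. Of the 28 members outside the 7 lists, 10 were seen by WT RIP without a floor value, with differences from -0.20 to 3.88, and 4 by IgG RIP, with differences from 0.58 to 3.39. Of the 28, 24 and 22 were called, beside 12.4% and 14.2% of all tested features.

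A listed exonic circRNA of the same host was present for 31 members, which allows the annotation to be compared within a gene. Against WT RIP, 14 of them could be compared with a control that saw the member and its exonic loops without a floor value, and the member was above the median of those exonic loops in 6, with a median difference of -0.10 and a range from -2.13 for Gpm6a to 3.44 for Dlg4. Against IgG RIP 5 could be compared, and the member was above in 2, with a median of -0.21 and a range from -2.79 for Gpm6a to 0.43 for Aff3. On the same strand 21 members overlapped a listed exonic loop, and 11 shared an end with one.

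In the pairs whose ends lie within 2 bases, the Rad52 member and its exonic twin differed by 0.19 and 0.19 from WT RIP and by 0.65 and 0.55 from IgG RIP. The Aff3 pair gave 1.56 and 1.70 against WT RIP and 1.39 and 1.24 against IgG RIP. For Zfp148, a zinc finger transcription factor and the fifth such pair, the values against WT RIP were 1.62 and 1.87. The Mboat2 member, annotated as intronic, was at least 2.97-fold above WT RIP and at least 1.82-fold above IgG RIP, and its twin, annotated as exonic, differed by 1.89 from WT RIP and was at least 1.84-fold above IgG RIP. In Camta1 the member and its twin had differences of 1.73 ± 0.38 and 0.92 ± 0.36 from WT RIP and of 1.94 ± 0.38 and 0.71 ± 0.36 from IgG RIP. That was the widest gap of the 5 pairs, 0.81 against WT RIP and 1.23 against IgG RIP. With shared runs of 32 to 52 bases, each feature of a pair may also have taken up RNA of the other, and this was not tested.

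**Figure D5:**
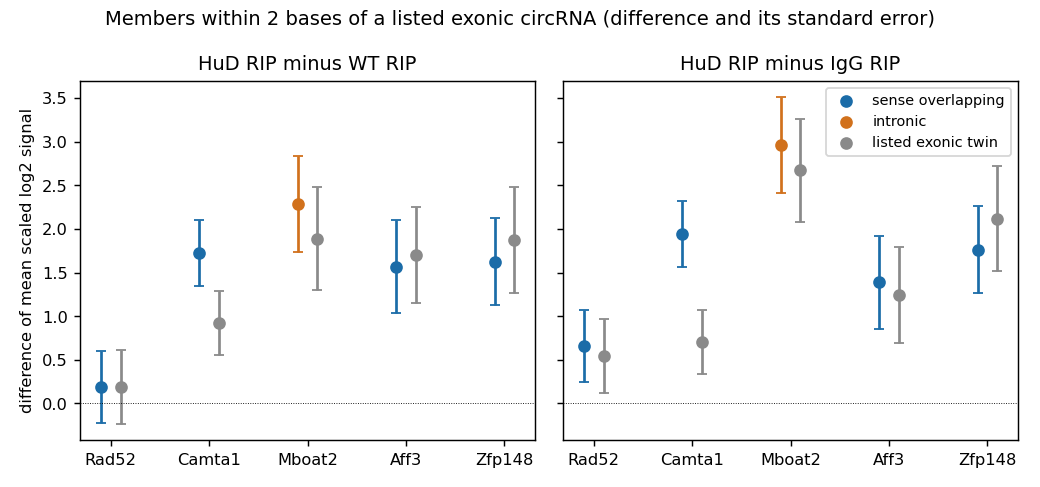
Difference of mean scaled log2 signal (y axes, with its standard error) for the 5 members whose ends lie within 2 bases of a listed exonic circRNA, in colour, and for that exonic twin in grey, against WT RIP on the left and IgG RIP on the right, as measured. In all pairs but Camta1 the difference between the twins is smaller than the standard errors.

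WT RIP and IgG RIP, the controls, were also compared with each other. The lists were made against these arrays, so this comparison is not independent of the choice of members. Of all tested features 0.0146% were called either way by limma, and 0 of the 85 members were. An unadjusted limma p under 0.05 was found for 4 members and for 393 of all 6871 tested features. The difference between WT RIP and IgG RIP had a median of -0.09 over the members and was under 1 (log2) in size for 81 of them. The exceptions, as measured, were Camk2d with -1.40, and Tfdp2, Rnf214 and Gprasp1 with 1.45, 1.05 and 1.05. IgG RIP saw Camk2d, Rnf214 and Gprasp1 on no array, so their differences are set against signals not well above background. Camk2d was lower in WT RIP although WT RIP saw it on 1 array.

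Median T content was 25.0% in the sense overlapping members, 23.3% in the intronic and antisense ones and 23.3% in the exonic circRNAs, and median GC content was 45.0% in the sense overlapping, intronic and exonic ones. The letters ATTTA were present in 8 of the 85 members, or 9.41%, and in 30 of the 644 exonic circRNAs, or 4.66%. A run of 5 T was present in 6 members, or 7.06%, and in 20 exonic ones, or 3.11%. Members with ATTTA included the 2570-base intronic loop of Ube2e2 and the sense overlapping loops of Gria2, Hlf and Nptn, which include large and small differences. These windows hold 60 bases of each loop, so the rest of the loop was not searched. Genomic spans had a median of 6320 bases for sense overlapping, 4060 for intronic and 94 for antisense members against 11600 for the exonic circRNAs, and splicing within the loop was not known, so that a span is not the length of the RNA.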

How the data were processed

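RNA from 9 striatal immunoprecipitations (3 each of HuD RIP, WT RIP and IgG RIP) was hybridized to one-colour circRNA arrays. Per the file headers, the deposited intensity values come from Feature Extraction 11.0.1.1 with background subtracted, and they were not normalized between arrays. The authors' deposited tables hold log2 values, normalized by a method that is not stated, for the circRNAs they called higher in HuD RIP, with their own fold changes, p-values and false discovery rates, which were not used, and 20 raw or group value columns, also not used. The tables supplied annotation, positions and junction sequences.

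Spots marked as outliers (269 values) were left out, spots of a feature were averaged, and each array was centred by subtracting the 75th percentile of its log2 processed signals. The 6871 features that 3 or more arrays showed well above background were fitted with limma 3.58.1 in R 4.3.3, with 1 mean per group over all 9 arrays, 6 residual and 6.42 prior degrees of freedom, and Benjamini-Hochberg adjustment. Calls are at an adjusted p under 0.05. In data simulated on these features, 60 of 100 changes of 2 and 92 of 100 changes of 4 (log2) were called, with 8 false calls. The simulated noise was independent between features and arrays and had no floor values, so these rates may not hold on the real arrays. A circRNA on no array of a group above background has a bound, set against the mean, over that group's arrays, of the higher of its own signal and the lowest signal above background. Bounds have no order. The number of arrays limits the precision, and p-values measure the spread between RIP assays, which may be technical.

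The members, host gene lists and named circRNAs were chosen with earlier results of these data known. Named are all antisense and intronic members, members of hosts with more than 1 member, the 8 largest and 4 smallest sense overlapping ones by the smaller of both differences, those of the 7 host gene lists, and listed exonic circRNAs of the same hosts. Of the named ones, 1 host gene and 1 junction sequence are not reported here. A RefSeq gene (GRCm38.p6) was matched for 76 members, by the host transcript or, where that was not found, by the gene symbol. Whether deposited starts count from 0 or 1 is not stated, and spans are end minus start. Alternatives were other scalings, background correction, filters, covariates, blocks, samples and tests.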

Additional observations from a re-analysis of the deposited data

How the results depend on the processing

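Counts of members called higher were 69 against WT RIP and 71 against IgG RIP. They kept within 1.5 times of these values under the other scalings and without the filter. The same held with the slide as a block and with only the groups compared. At 1.5-fold and an unadjusted limma p under 0.05 they were 73 and 77, beside 18% and 18.9% of all tested features. The counts fell to 19 and 24 with normexp background correction, beside 2.34% and 3.71% of all tested features. Array brightness as a covariate left 21 and 8, beside 3.62% and 2.72%. Of the 14 members above background on all 9 arrays, 9 and 8 were called, beside 3.35% and 3.62% of all features seen on all arrays. With the methods' t-test after adjustment 0 and 26 were called, beside 0% and 3.92% of all tested features. Against IgG RIP 35 were called with slide and array row together as a block, beside 3.8% of all tested features. Leaving out 1 array gave 42 to 75 and 44 to 74, the lowest without HuD RIP replicate 3. There the shares over all tested features were 5.22% and 5.81%. The main fit did not pair the samples by replicate number, and whether the numbers mark pairs was not settled. Deviations of equally numbered HuD RIP and WT RIP arrays correlated at 0.65, 0.56 and -0.10 for replicates 1, 2 and 3. With IgG RIP arrays the correlations lay between -0.03 and 0.10. The replicate block called 72 and 74 members, beside 16.7% and 17.9% of all tested features, and 0 members between the controls. Between the controls, 4 members passed 1.5-fold and an unadjusted limma p under 0.05, beside 5.72% of all tested features. Under the other settings 0 members were called, those that leave out 1 array included (0 to 0). Without scaling, the median of all tested features moved from -0.36 to 1.13 against WT RIP and from -0.29 to 1.93 against IgG RIP, and with the percentile over features seen on all arrays to 0.35 and 0.52, so that differences are relative to their array.

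The sense overlapping minus exonic median was 0.17 with quantile normalization, 0.020 with normexp and 0.56 over members seen on all arrays against WT RIP, and -0.028 and 0.69 with the last 2 against IgG RIP. Leaving out 1 array gave -0.067 to 0.40 and 0.015 to 0.13. The intronic one was -1.31 and -0.58 for the 1 intronic member seen on all arrays, and ran from 0.22 to 0.45 and from -0.04 to 0.30 with 1 array left out. The antisense one ran from -0.09 to 1.19 and from -0.48 to 0.82.

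With brightness as a covariate the difference from IgG RIP turned negative for Camk2d (-0.033), Dynll2 (-0.20), Ubr3 (-0.62), App (-0.061) and sense overlapping Ube2e2 (-0.093), and for the exonic loops of Ccny (-0.46) and Tulp4 (-0.86). That of exonic Dlg4 was 2.11 without scaling and 1.25 with normexp. The cause was not tested. Of 3958 alternative values of 103 named circRNAs, 3176 kept direction and call. Brightness and group cannot be told apart fully here, and dim controls leave a bound at most for 25 members against WT RIP and for 60 against IgG RIP.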
